A study of Rattus norvegicus with 24 samples.

Results

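Period 1 (Per1) and 9 other genes of the circadian clock and its direct outputs were followed in rat kidney inner medulla and heart ventricle. The 10 genes (Per1, Per2, Per3, Cry1, Cry2, Clock, Nr1d1, Nr1d2, Dbp and Tef) were taken by symbol from the 36856 genes of each of 3 count tables, and all 10 were found and tested in every table. The question put to the data was whether Per1 moved alone or together with the other clock genes when Na intake or aldosterone was changed. All rats were Sprague-Dawley rats of 120 to 200 g, and each of the 6 groups held 4 rats. In the aldosterone experiment, rats on a 0.4% Na diet received aldosterone at 12 µg per day from an implanted osmotic minipump (group Aldosterone) or served as Control. In the low-salt experiment, rats ate 0.01 to 0.02% Na (Kidney_low_salt, Heart_low_salt) or 0.4% Na (Kidney_high_salt, Heart_high_salt). The protocol calls the 0.4% diet the control diet, so high salt here means the diet that the aldosterone experiment used throughout. Diets lasted 7 days. Kidney libraries came from the papilla of one kidney and heart libraries from a piece of ventricle, so each is whole tissue of mixed cell types. Fewer cells of a type and less RNA per cell cannot be told apart in such samples. The labels give neither the time of day of the tissue collection nor whether a rat gave both tissues. In every group, replicates 1 and 2 carry the label batch 1 and replicates 3 and 4 batch 2, and the labels do not say what a batch is.

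The mammalian clock is a feedback loop of transcription that runs in almost every cell. CLOCK pairs with BMAL1 (or NPAS2 pairs in its place), and the pair binds E-box sequences and drives the Period and Cryptochrome genes, whose proteins return to the nucleus and inhibit it. NR1D1 and NR1D2 (REV-ERB alpha and beta) are nuclear receptors that repress Bmal1, while DBP and TEF are transcription factors that bind D-box sequences and pass the rhythm on to output genes. Per1 is also known as a direct target of corticosteroid receptors, and in the collecting duct as an early aldosterone-induced gene that acts on the epithelial Na channel.

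Totals of 24299000 to 38318000 counts per library stood behind the values. The labels call all rats female, but Xist was at 239 to 454 CPM (counts scaled to the library total) in the 8 aldosterone-experiment libraries but did not exceed 0.0913 CPM in any of the 16 low-salt libraries. Y-linked RNA (Uty, Kdm5d, Ddx3y and Eif2s3y together) came to 144 to 275 CPM in those 16 and to at most 0.319 CPM in the 8, so the 16 libraries went against their label. Each treatment comparison lies within 1 of these experiments. Of the defining markers, 8 inner medulla genes summed to 12691 to 23683 CPM in kidney libraries, and 9 ventricle genes summed to 70625 to 91437 CPM in heart libraries and to at most 5.75 CPM in kidney. Transcripts of kidney marker genes were also counted in heart libraries. There 6 genes of the thick ascending limb, a neighbouring kidney segment, summed to 118 CPM in Heart_high_salt replicate 2. They summed to 3.78 to 12.5 CPM in the rest of batch 1 and to 0.955 to 2.03 CPM in batch 2. The inner medulla genes without Akr1b1, which heart holds at 267 to 335 CPM, summed to 42.4 CPM in Heart_high_salt replicate 2. Their sums were 2.54 to 4.08 CPM in the rest of batch 1 and 0.537 to 0.891 CPM in batch 2. Heart_high_salt replicate 2 therefore stood apart, and heart results are given without it where a direction turned or a value moved most.

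Some clock genes carry the motifs through which the loop acts close to their start. RefSeq promoter windows on GRCr8 were at hand for 9 of the 10 genes (11 windows, with 2 start sites each for Clock and Nr1d1). The 250 bases upstream of the start were searched on both strands for CACGTG (the E-box), CACGTT (a variant E-box), TTANGTAA (the D-box), TAGGTCA (the core bound by REV-ERB and ROR proteins) and for the palindromic steroid receptor element. CACGTG stood in 5.59% of 33469 windows of the same length, CACGTT in 4.07%, TTANGTAA in 2.04%, TAGGTCA in 2.26% and the steroid receptor element in 0.373%. Matches were found in 4 of the genes: Per2, Cry2, Tef and Nr1d1. The window of Per1 held none of these motifs. That holds for the 250 bases before 1 annotated start only, and sequence farther away or at other starts was not searched. The windows of Per2, Cry2 and Tef are shown because each of the 3 genes has a match and a single start here, each written 5′ to 3′ along its own gene and ending at the base before the start, with matches in capitals.
Per2 upstream window, chr9:99496994-99497243, minus strand: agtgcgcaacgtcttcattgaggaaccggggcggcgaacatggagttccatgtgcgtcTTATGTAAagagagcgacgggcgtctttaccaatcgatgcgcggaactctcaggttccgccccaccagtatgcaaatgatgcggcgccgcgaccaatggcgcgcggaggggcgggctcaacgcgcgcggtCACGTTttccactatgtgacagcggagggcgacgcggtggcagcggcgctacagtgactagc
Cry2 upstream window, chr3:98860438-98860687, minus strand: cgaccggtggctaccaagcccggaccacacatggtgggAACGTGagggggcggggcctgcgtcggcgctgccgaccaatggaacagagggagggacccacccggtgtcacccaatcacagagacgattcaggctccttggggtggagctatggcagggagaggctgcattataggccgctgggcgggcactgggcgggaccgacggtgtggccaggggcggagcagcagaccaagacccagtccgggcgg
Tef upstream window, chr7:115206577-115206826, plus strand: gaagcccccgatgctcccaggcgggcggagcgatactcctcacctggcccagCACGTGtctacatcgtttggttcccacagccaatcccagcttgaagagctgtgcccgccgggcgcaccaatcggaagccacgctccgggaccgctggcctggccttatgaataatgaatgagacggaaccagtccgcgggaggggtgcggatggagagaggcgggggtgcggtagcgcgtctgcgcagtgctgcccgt
Per2 held a D-box at -192 to -185 and the variant E-box at -62 to -57, counted from the start. Cry2 held the variant E-box on the opposite strand, which reads AACGTG here, at -212 to -207. Tef held the E-box at -198 to -193. Nr1d1 held the variant E-box at -174 to -169 from its start 1 and the E-box at -191 to -186 from its start 2.

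Per1 had the largest log2 difference of the 10 genes in each of the 3 treatment comparisons, and it lay above the reference group each time. The levels below are normalised CPM, scaled by TMM within each table. Under aldosterone, Per1 stood at 74.7, 62.97, 58.04 and 74.4 CPM in replicates 1 to 4, against 41.999, 52.6, 48.5 and 45.1 CPM in Control. All 4 aldosterone libraries lay above all 4 controls. The means were 67.5 ± 8.37 and 47.0 ± 4.53 CPM (SD, n = 4 rats each), a log2 fold change of 0.52 ± 0.11 (SE). In kidney on low salt, Per1 stood at 143, 88.98, 98.1 and 130.4 CPM against 32.6, 70.3, 52.4 and 54.4 CPM on high salt. Here too the groups did not overlap, with means of 115 ± 25.7 and 52.4 ± 15.5 CPM and a log2 fold change of 1.14 ± 0.24. In heart, Per1 stood at 53.7, 24.2, 31.2 and 46.4 CPM on low salt against 8.75, 24.3, 9.70 and 12.2 CPM on high salt. The groups overlapped through Heart_high_salt replicate 2, the library that stood apart, which lay just above Heart_low_salt replicate 2. The means were 38.9 ± 13.5 and 13.7 ± 7.21 CPM, a log2 fold change of 1.52 ± 0.36, or 1.95 without Heart_high_salt replicate 2 (edgeR adjusted p 0.262). The difference was present in both batches of each comparison: 0.55 and 0.49 on the log2 scale for aldosterone, 1.24 and 1.08 for kidney low salt, and 1.30 and 1.81 for heart.

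Per1 did not pass the threshold of an adjusted p of 0.05 in any of the 3 edgeR quasi-likelihood fits. The p-values were 0.00136, 0.00142 and 0.00274, and after Benjamini-Hochberg adjustment over all genes tested they were 0.200 for aldosterone, 0.0524 for kidney and 0.239 for heart. Of the 10 clock genes, 0 passed in each comparison, beside 0% of 17671 genes for aldosterone, 2.46% of 18449 for kidney low salt and 0.0517% of 15473 for heart. The DESeq2 Wald test called Per1 in all 3, with adjusted p of 0.00732, 5.48e-05 and 0.0283, beside 2.29%, 10.6% and 2.43% of genes called. Over 17 alternative fits per comparison, the log2 fold change of Per1 was above 0 in all 17 each time. It ran from 0.45 to 0.60 for aldosterone, from 0.94 to 1.39 for kidney and from 1.23 to 1.95 for heart. It passed the threshold in 1, 3 and 2 of them.

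**Figure D1:**
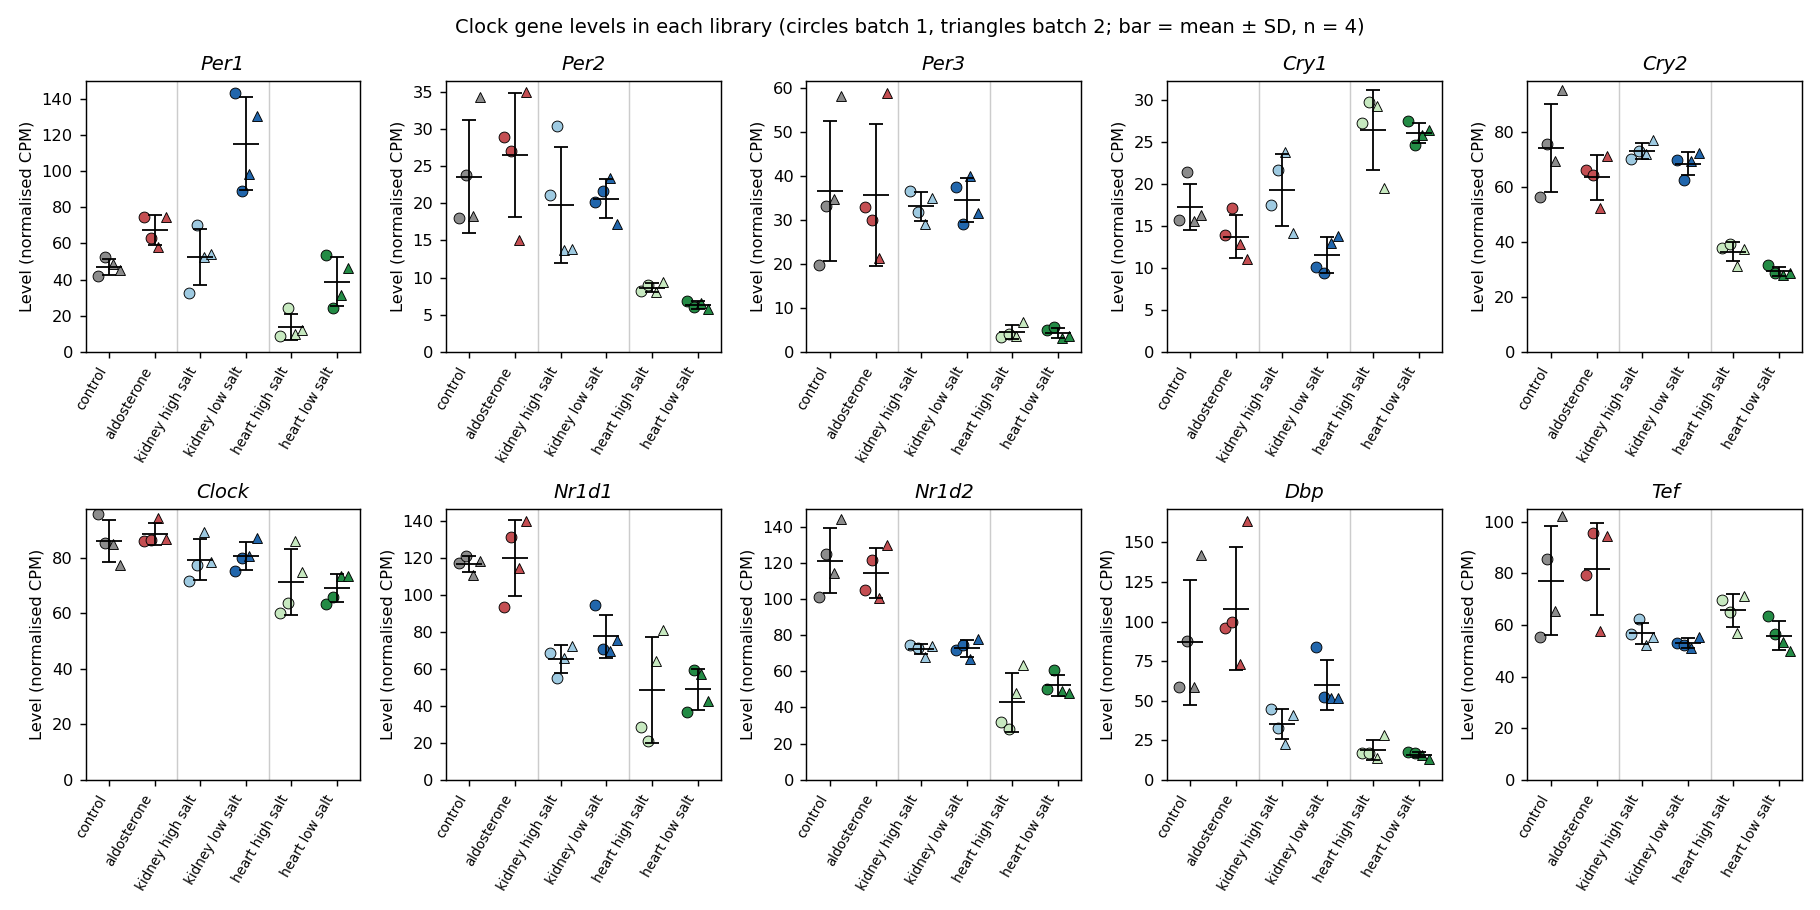
Normalised CPM (vertical axes, each from 0) of the 10 clock genes in every library of the 6 groups, with circles for batch 1, triangles for batch 2 and bars for the mean ± SD of 4 rats. Per1 lies higher in the treated group of each pair, without overlap in the kidney tables, while most other genes overlap. Grey lines separate tables that were scaled separately.

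At an unadjusted p under 0.05, a rule that took in 9.9% of genes for aldosterone, 19.6% for kidney and 10.6% for heart, Per1 was joined by 1, 2 and 3 other clock genes. Under aldosterone the other gene was Cry1, at lower levels. In kidney on low salt they were Dbp, at higher levels, and Cry1, at lower levels. In heart on low salt they were Per2, Cry2 and Tef, all at lower levels. Per1 was the only one of the 10 under this rule in all 3. Of 14418 genes tested in all 3, 12 lay higher at p under 0.05 each time, Per1 and Usp2 among them, and 8 lay lower. Kidney and heart of the low-salt experiment may come from the same rats, so their comparisons may not be independent. The other 9 clock genes had a median log2 fold change of 0.03, 0.03 and -0.06 in the order aldosterone, kidney and heart, beside 0.00, -0.00 and -0.01 over all genes tested.

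**Figure D2:**
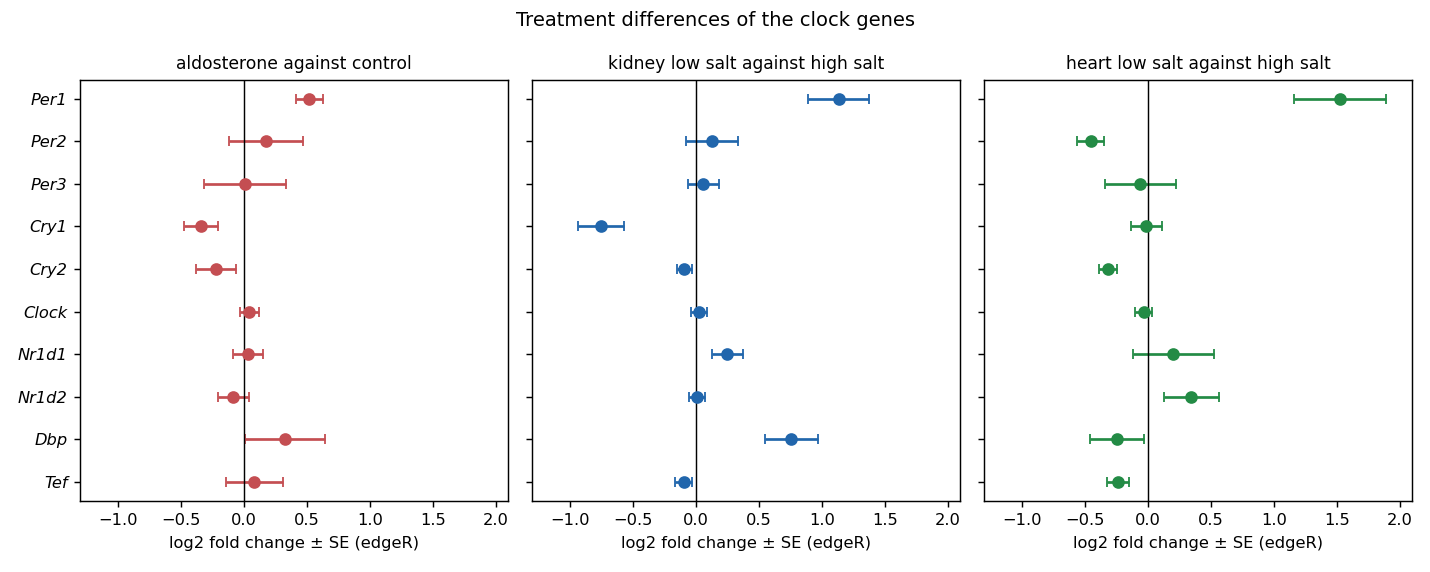
Log2 fold change ± SE (horizontal axis, edgeR) of each clock gene in the 3 treatment comparisons. Per1 stands at 0.52, 1.14 and 1.52, while the 9 others lie between -0.75 and 0.76.

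The other Period genes lay in no comparison above their reference group without overlap, and no test set them against Per1. Under aldosterone the log2 difference was 0.44 in batch 1 and -0.13 in batch 2 for Per2, and 0.29 and -0.35 for Per3. Per2, a core repressor like Per1, stood at 28.97, 27.004, 14.99 and 34.996 CPM under aldosterone and at 17.96, 23.8, 18.3 and 34.3 CPM in Control, with overlap (log2 0.17 ± 0.29). In kidney it was 20.6 ± 2.64 CPM in the low-salt and 19.8 ± 7.85 CPM in the high-salt group, and its log2 difference was -0.28 in batch 1 and 0.54 in batch 2. In heart Per2 lay below its high-salt level in every library, the opposite side from Per1, at 6.84, 6.05, 6.59 and 5.78 CPM on low against 8.15, 8.94, 8.10 and 9.41 CPM on high salt. The means were 6.31 ± 0.487 and 8.65 ± 0.634 CPM, a log2 fold change of -0.45 ± 0.11, with an adjusted p of 0.226 (edgeR) or 0.0566 (DESeq2). Per2 was the only clock gene whose heart groups did not overlap, beside 4.72% of all genes tested there. Per3, the third Period gene, differed by 0.01 ± 0.33, 0.06 ± 0.12 and -0.06 ± 0.28 on the log2 scale, and its groups overlapped in all 3 comparisons.

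The 2 Cryptochromes, the repressors that bind the Period proteins, lay lower on average in the treated group of all 3 comparisons. In kidney, Cry1 stood at 10.1, 9.37, 12.9 and 13.8 CPM on low salt and at 17.5, 21.6, 23.8 and 14.2 CPM on high salt. All 4 low-salt libraries lay below all 4 high-salt ones; the nearest 2 were at 13.8 and 14.2 CPM. The means were 11.6 ± 2.13 and 19.3 ± 4.27 CPM, a log2 fold change of -0.75 ± 0.18 with an adjusted p of 0.0725 (edgeR) and 0.00271 (DESeq2). With single libraries left out in turn, Cry1 passed only without Kidney_high_salt replicate 4 (edgeR adjusted p 0.0264). That library was the lowest of its group and the high-salt one nearest to the low-salt libraries. Under aldosterone, Cry1 was 13.7 ± 2.55 against 17.2 ± 2.78 CPM (log2 -0.34 ± 0.13, edgeR adjusted p 0.462), and in heart 26.1 ± 1.17 against 26.4 ± 4.76 CPM (log2 -0.01 ± 0.12, or 0.04 without Heart_high_salt replicate 2). Cry2 stood in heart at 31.4, 28.7, 28.1 and 28.7 CPM on low against 37.8, 39.3, 31.2 and 37.4 CPM on high salt. The groups overlapped through Heart_high_salt replicate 3, and the log2 fold change was -0.32 ± 0.07 (adjusted p 0.222 by edgeR, 0.0317 by DESeq2). In the kidney tables Cry2 differed by -0.22 ± 0.16 for aldosterone and -0.09 ± 0.06 for low salt on the log2 scale.

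Clock, which encodes the activator, overlapped between groups in every comparison. Its log2 differences were 0.04 ± 0.08, 0.03 ± 0.06 and -0.03 ± 0.07, and group means lay between 79.3 and 88.5 CPM in the kidney tables and at 69.2 and 71.3 CPM in heart. Its partner gene Bmal1 differed by -0.26 ± 0.25, -0.03 ± 0.08 and -0.03 ± 0.17 (in heart 0.07 without Heart_high_salt replicate 2), and Npas2, the paralog of Clock, by -0.02 ± 0.19, -0.03 ± 0.11 and -0.13 ± 0.14. The groups of Bmal1 and Npas2 overlapped as well.

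Nr1d1 and Nr1d2, the repressors of Bmal1, also overlapped in every comparison. Nr1d1 was 77.8 ± 11.6 against 65.5 ± 7.43 CPM in kidney (log2 0.25 ± 0.12, edgeR adjusted p 0.310) and 120 ± 20.7 against 117 ± 4.33 CPM under aldosterone (log2 0.03 ± 0.12). In heart, the log2 difference of Nr1d1 was 0.80 ± 0.32 between batches (adjusted p 0.224) and 0.20 ± 0.32 between diets. On high salt it stood at 28.6 and 20.7 CPM in batch 1 and at 64.2 and 80.9 CPM in batch 2, and on low salt at 36.6 and 59.3 CPM and at 57.2 and 42.8 CPM. The diet difference was 0.94 on the log2 scale in batch 1 and -0.54 in batch 2, and without Heart_high_salt replicate 2 the whole comparison turned to -0.06. Nr1d2 differed in heart by 0.34 ± 0.22 between batches and by 0.34 ± 0.22 between diets, with diet differences of 0.89 and -0.18 in the 2 batches, and it differed by no more than 0.08 on the log2 scale in the kidney fits.

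Dbp and Tef, the output factors, did not pass in any of the 3 treatment comparisons in edgeR. Dbp stood in kidney at 83.7, 51.9, 51.7 and 51.5 CPM on low salt against 44.7, 32.9, 22.6 and 40.6 CPM on high salt. The groups did not overlap, and 3 of the 4 low-salt libraries lay between 51.5 and 51.9 CPM. The means were 59.7 ± 15.97 and 35.2 ± 9.69 CPM, a log2 fold change of 0.76 ± 0.21 with an adjusted p of 0.0992 (edgeR) and 0.00468 (DESeq2). With Per1 and Cry1, Dbp made 3 of 10 clock genes without overlap in kidney, beside 11.4% of all genes, and under aldosterone Per1 was the only one, beside 5.09%. Dbp differed by 0.33 ± 0.32 under aldosterone and by -0.25 ± 0.21 in heart on the log2 scale, with overlap in both. Tef was 55.8 ± 5.70 against 65.7 ± 6.46 CPM in heart, a log2 fold change of -0.24 ± 0.08 (edgeR adjusted p 0.381), with overlap. In the kidney tables Tef differed by 0.08 ± 0.23 and -0.10 ± 0.07.

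Whether a response differed between experiments was tested as an interaction over 16 libraries. The aldosterone response of Per1 was smaller than its low-salt response in kidney by -0.63 ± 0.29 on the log2 scale (edgeR adjusted p 0.377). That comparison sets libraries with Xist against libraries with Y-linked RNA, and the part of this split in the difference cannot be told apart. The kidney and heart low-salt responses of Per1 differed by -0.38 ± 0.48 (adjusted p 0.787), or by -0.82 without Heart_high_salt replicate 2 (edgeR adjusted p 0.4496), so a difference was not detectable and the interval is wide. Between kidney and heart, Cry1 differed by -0.73 ± 0.23 (adjusted p 0.166 by edgeR, 0.0436 by DESeq2) and Dbp by 1.01 ± 0.33 (edgeR adjusted p 0.177). Per2 differed by 0.59 ± 0.25 (adjusted p 0.291) and Cry2 by 0.23 ± 0.09 (adjusted p 0.276). No clock gene passed either interaction in edgeR, beside 0.0528% of 18938 genes and 0.83% of 19408.

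In heart, libraries with the same replicate number deviated together, and a fit with the number as a block in place of batch called 0 genes in all, against 8 without it. Such libraries also share a batch and the labels state no pairing, so the block is an assumption. Per1 then had a log2 fold change of 1.56 with an adjusted p of 0.427. The batch coefficient of the edgeR fits called no clock gene, beside 0.136% of genes in the aldosterone table, 0% in the kidney low-salt table and 2.24% in heart. The nearest was Clock in heart, 0.28 ± 0.07 higher in batch 2 on the log2 scale (edgeR adjusted p 0.0792).

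The clock genes also varied among rats of 1 group. With the mean of each group subtracted from log2 CPM, Pearson's r over the 24 libraries was 0.87 between Cry2 and Tef, 0.84 between Nr1d1 and Nr1d2, and 0.81 between Per3 and Dbp, while Cry2 and Clock gave -0.59. By table, in the order aldosterone, kidney and heart, r was 0.93, 0.17 and 0.78 for Cry2 and Tef and 0.55, 0.09 and 0.94 for Nr1d1 and Nr1d2. It was 0.90, 0.64 and 0.85 for Per3 and Dbp and -0.96, 0.24 and -0.84 for Cry2 and Clock, so the kidney low-salt table showed little of the first 2 pairs and the other sign in the last. These are descriptions over libraries that share batches and scaling. In the aldosterone table, replicate 4 of both groups had high Dbp (164 and 142 CPM, against 58.6 to 100.01 CPM in the other 6) and high Per3 (58.7 and 58.1 CPM). The same 2 libraries had the lowest Bmal1 of the table, 23.7 and 26.3 CPM. Per1 in them was 74.4 and 45.1 CPM, within the range of the other libraries of their groups. Group-centred r between Per1 and the 9 others ran from -0.44 (Nr1d1) to 0.37 (Cry2) over the 24 libraries. Within tables, in the order aldosterone, kidney and heart, Per1 and Cry2 gave 0.54, 0.60 and 0.56. Per1 gave 0.57, 0.03 and 0.42 with Per2, 0.57, -0.15 and 0.01 with Per3, and 0.49, 0.46 and 0.12 with Tef. In the aldosterone table its r was negative with Clock (-0.48) and Nr1d1 (-0.10).

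**Figure D3:**
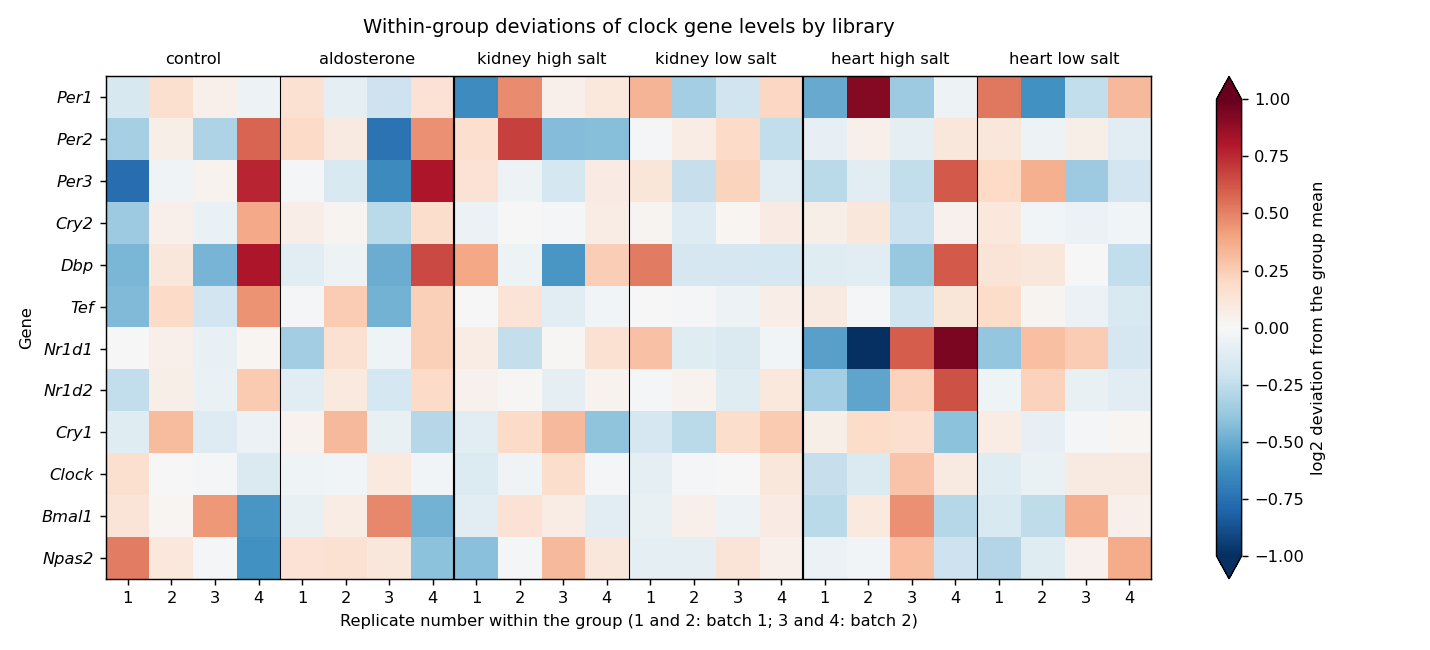
Log2 deviation of each library from its group mean (colour, from -1 in blue to 1 in red) for the clock genes and the partners Bmal1 and Npas2, with libraries in columns by group and replicate number. In replicate 4 of the control and aldosterone groups, Per2, Per3, Cry2, Dbp and Tef are red and Bmal1 and Npas2 blue. In heart on high salt, Nr1d1 and Nr1d2 are blue in batch 1 and red in batch 2.

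Likeness to Per1 was measured as Pearson's r of log2(CPM + 0.5) over the 24 libraries, with the mean of each table subtracted, among the 14417 other genes tested in all 3 tables. The 5 genes most like it were Tob2 (r 0.87), Timp4 (0.78), Ddit4 (0.77), Bend5 (0.75) and Tmem50b (0.75). Ddit4, a stress-induced inhibitor of mTOR signalling that corticosteroids induce, differed by 0.26, 0.32 and 0.54 on the log2 scale in the 3 comparisons. None of the 5 passed the threshold in any of them. The list depended on the table and the centring: in the aldosterone table r was 0.31 for Tob2, 0.56 for Timp4, 0.84 for Ddit4, 0.02 for Bend5 and 0.25 for Tmem50b. With group means subtracted, Tob2 (0.74) and Ddit4 (0.76) ranked 5 and 4, while Timp4 (0.53), Bend5 (0.54) and Tmem50b (0.32) fell to ranks 135, 127 and 1101. Ranbp10 (0.86), Dnajc9 (0.81) and Cpne7 (0.80) then led. The 9 other clock genes ranged from -0.31 (Cry1, rank 12721) to 0.23 (Dbp, rank 2434).

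Beyond the 10, a list of 20 further clock genes was examined (activators, ROR receptors, kinases and ubiquitin ligases of the Period and Cryptochrome proteins, and clock outputs), of which 18 were tested in each comparison. None passed under aldosterone or in heart. In kidney 1 of 18 did, beside 2.46% of all genes: Noct, a rhythmic phosphatase gene also called nocturnin, was 12.4 ± 6.06 CPM after the low-salt and 6.60 ± 2.81 CPM after the high-salt diet, a log2 fold change of 0.87 ± 0.14 (edgeR adjusted p 0.0299). Its 2 groups overlapped, and it was no longer called with the replicate block, without the batch term or within either batch alone. With 1 library left out it kept its call in 2 of 8 fits, those without Kidney_low_salt replicate 1 or Kidney_high_salt replicate 4, and the adjusted p in the other 6 ran from 0.0658 to 0.0864. The list's median log2 fold changes were -0.02, -0.03 and -0.04. Ciart, a rhythmic repressor of CLOCK and BMAL1, stood at no more than 2.02 CPM in any library.

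Usp2, a deubiquitinase gene with rhythmic expression that aldosterone is known to induce in kidney, lay higher in the treated group of all 3 comparisons, as Per1 did, each time at an unadjusted p under 0.05. Under aldosterone it stood at 40.03, 46.999, 45.05 and 55.01 CPM against 33.7, 16.9, 25.9 and 25.5 CPM in Control, without overlap (log2 0.87 ± 0.20, edgeR adjusted p 0.229). In kidney it was 28.6, 27.9, 15.9 and 17.96 CPM on low against 8.58, 19.9, 9.62 and 12.4 CPM on high salt, with overlap (log2 0.81 ± 0.24, adjusted p 0.117). In heart it was 128, 97.6, 86.3 and 103 CPM against 77.2, 82.2, 74.96 and 71.99 CPM, without overlap (log2 0.44 ± 0.10, adjusted p 0.221). Its r with Per1 was 0.65 (rank 24), and 0.34 (rank 853) with group means subtracted.

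A list of 22 genes known to be induced by corticosteroids, which includes Usp2 and Ddit4, was set beside Per1. It was chosen with earlier results of these data known, so its shares beside all genes are descriptions and not independent support. In kidney on low salt 5 of 22 rose, beside 1.09% of all genes called on the higher side, and none passed on the lower side. Zbtb16, a transcriptional repressor and a classic corticosteroid target, rose by 2.34 ± 0.16 on the log2 scale, from 9.84 ± 2.01 to 50.1 ± 7.48 CPM (edgeR adjusted p 0.00539). Fkbp5, a co-chaperone of steroid receptors, rose by 0.69 (adjusted p 0.0374), Errfi1 by 0.52 (0.0436), Mt2A by 0.57 (0.0482) and Mt1 by 0.61 (0.0489). The metallothioneins Mt1 and Mt2A are close paralogs whose reads can be shared. Zbtb16 passed with each library left out in turn, while the count for the list fell to 1 with Kidney_high_salt replicate 1, 2 or 3 or Kidney_low_salt replicate 3 or 4 left out and with the replicate block. Positive log2 fold changes were seen in 19 of the 22, and the median was 0.37 beside -0.00 over all genes. Dusp1, a phosphatase that inactivates MAP kinases, lay on the other side, at 33.96 ± 5.72 against 52.6 ± 8.36 CPM without overlap (log2 -0.63 ± 0.15, edgeR adjusted p 0.0656). Sgk1, the aldosterone-induced kinase, was 1042 ± 76.8 against 723 ± 249 CPM (log2 0.56 ± 0.24, adjusted p 0.237).

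Under aldosterone none of the 21 tested genes of that list passed, beside 0% of 17671 genes, and the median was 0.09, with 14 positive. At an unadjusted edgeR p under 0.05, 2 lay higher (Usp2 and Pdk4) and 1 lower (Tsc22d3), beside 1096 and 654 of all genes. Usp2 and Pdk4 (log2 0.58 ± 0.15) were the 2 that lay higher without overlap and 0 lay lower, beside 556 and 344 of all genes. There Fkbp5 differed by 0.21 ± 0.18, Zbtb16 by -0.05 ± 0.35, Sgk1 by -0.17 ± 0.18 and Tsc22d3, which encodes the glucocorticoid-induced leucine zipper, by -0.33 ± 0.14 on the log2 scale. In heart none of 21 passed and 7 had an unadjusted p under 0.05, all on the higher side, where 5.68% of all genes lay under this rule. The median was 0.29, with 17 positive, while Fkbp5 stood at -0.00 ± 0.12, Zbtb16 at -0.16 ± 0.25 and Tsc22d3 at 0.34 ± 0.09 (edgeR adjusted p 0.258). Of the 21, 5 lay higher without overlap and 0 lower, beside 416 and 315 of 15473 genes. The smallest p of the list were those of Pik3r1 (log2 0.50 ± 0.07, edgeR adjusted p 0.0891) and Klf9 (0.59 ± 0.09, adjusted p 0.0897). A list of 22 immediate early genes, which share rapid induction by stimuli with Per1, had none called in any comparison, with medians of -0.05, 0.04 and 0.03.

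**Figure D4:**
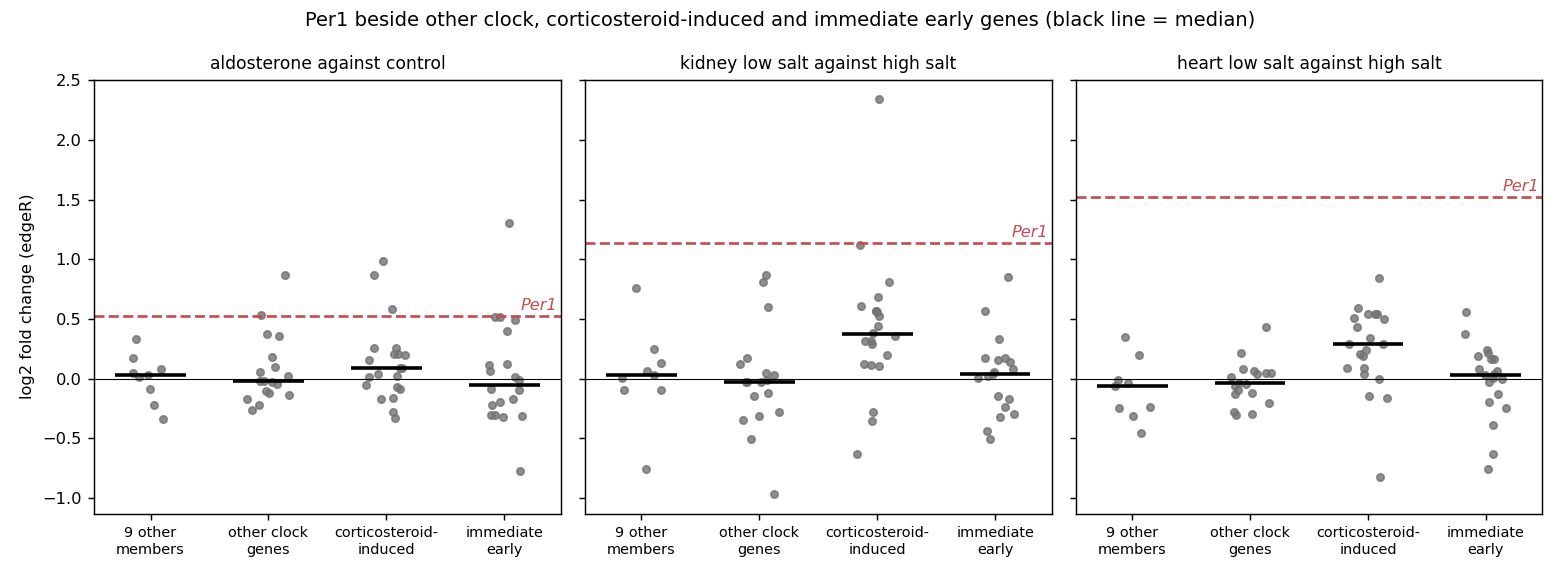
Log2 fold changes (vertical axis, edgeR) of the 9 other clock genes and of 3 listed groups in the 3 comparisons, 1 point per gene, with a black line at each median and a dashed line at Per1. Median differences of the 9 clock genes are 0.03, 0.03 and -0.06, while those of the corticosteroid-induced genes are 0.09, 0.37 and 0.29.

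Marker genes of other cells also differed in level between the groups. Of 9 genes listed as erythroid, all 9 had positive log2 fold changes in each comparison, though none passed. Under aldosterone, where no gene of the whole table passed, 7 of the 9 lay higher at an unadjusted edgeR p under 0.05, beside 1096 of 17671 genes. In kidney and heart none of the 9 did. Their sums were 3626 to 5184 CPM under aldosterone against 2118 to 2848 CPM in Control, 3045 to 6827 against 1238 to 5066 CPM in kidney, and 18571 to 58780 against 2351 to 35858 CPM in heart. No gene of this list was at 0 in all libraries of a group. Slc4a1, among the 9, held a large part of the kidney sums. Its means were 1454 (Aldosterone), 1103 (Control), 1119 (Kidney_low_salt) and 956 CPM (Kidney_high_salt). Those of Hbb, a haemoglobin gene, were 1126, 618, 1300 and 851 CPM. In Heart_low_salt and Heart_high_salt, Slc4a1 was 79.4 and 62.8 CPM, beside 14144 and 8087 CPM for Hbb. Whether the kidney counts of Slc4a1 came from blood was not tested. Under aldosterone, all 6 markers of the thick ascending limb were positive, with sums of 2731 to 5930 against 1337 to 3264 CPM. Of 7 tested smooth muscle and fibroblast genes 6 were positive, with a median log2 fold change of 0.81 and sums of 146 to 409 against 107 to 307 CPM. Among them Col1a1, a fibrillar collagen gene, differed by 1.47 ± 0.25 without overlap (edgeR adjusted p 0.182). All 9 leukocyte and all 6 urothelium genes were positive too, with medians of 0.40 and 0.48, while their sums overlapped between groups. Of the 8 inner medulla markers 4 were positive under aldosterone, with a median of -0.07. Among them Scnn1a, an epithelial Na channel subunit gene, was 109 ± 20.1 against 45.4 ± 15.3 CPM without overlap (log2 1.26 ± 0.25, edgeR adjusted p 0.182). In kidney on low salt the 8 inner medulla markers went both ways, with 4 positive and a median of 0.04. There Scnn1a rose by 2.66 ± 0.25 (edgeR adjusted p 0.0103). Akr1b1, the aldose reductase gene, fell by 1.74 (SE 0.19, adjusted p 0.0163) from 9018 to 2694 CPM, and Slc14a2, a urea transporter gene, fell by 0.81 (SE 0.12, adjusted p 0.0207). The sum of all 8 was 12691 to 15011 CPM on low and 19276 to 23683 CPM on high salt. Without Akr1b1 the sums overlapped, at 9545 to 13199 and 11025 to 14056 CPM. In heart, Nppa, the atrial natriuretic peptide gene, was 16.7, 44.96, 69.7 and 202 CPM on low and 102, 265, 299.8 and 2513 CPM on high salt, in ascending order (log2 -2.69 ± 0.95, adjusted p 0.378). Slc12a1, the Na-K-2Cl cotransporter gene of the thick ascending limb, differed by -4.23 ± 1.26 (adjusted p 0.298), with Heart_high_salt replicate 2 in the reference group. The part of these differences in the Per1 result was not tested.

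By tissue and treatment, Per1 levels ran from Kidney_low_salt (115 CPM) through Aldosterone (67.5), Kidney_high_salt (52.4), Control (47.0) and Heart_low_salt (38.9) to Heart_high_salt (13.7). Only the first step of this order was free of overlap between neighbours, and the 3 tables were scaled separately. Kidney and heart on high salt were therefore also fitted together, where 79.9% of 18175 genes were called. There Per1 fell by 1.04 on the log2 scale in heart relative to kidney (SE 0.34, edgeR adjusted p 0.0208) and Per3 fell by 1.99 (SE 0.22, adjusted p 3.48e-05). Cry1, Clock and Tef lay higher in heart by 1.37 ± 0.18, 0.75 ± 0.08 and 1.13 ± 0.09. With library totals in place of TMM, the median of all genes moved from -0.13 to -1.02, so only differences relative to that shift can be read. On that scale Per1 stood at -1.93, Per3 at -2.88, Cry1 at 0.47 and Tef at 0.23, all still called. Clock stood at -0.14, above that median of -1.02, as its 0.75 was above the median of -0.13 under TMM. Per1 lost its call without Kidney_high_salt replicate 2 (adjusted p 0.0802), Heart_high_salt replicate 3 (0.0643) or Heart_high_salt replicate 4 (0.0540). Without Heart_high_salt replicate 2 it stood at -1.47 (adjusted p 0.00102). Tissue and table cannot be told apart here.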

How the data were processed

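Per gene, the authors deposited expected counts (estimates with decimals) in 3 tables, made from stranded mRNA libraries read with 50 cycles from one end, per the labels' protocols. Salmon, Trimmomatic, MultiQC and bcl2fastq 2.19 appear in the submitters' processing notes. The genome build, annotation and strand option were not given in the sources used here. Each of the 24 columns carries a sample's title. Here the expected counts were rounded. Each table was fitted with edgeR 4.0.16 in R 4.3.3 (filterByExpr with a minimum count of 10, TMM, glmQLFit and glmQLFTest, batch as a term), with Benjamini-Hochberg adjustment over all genes tested and a threshold of 0.05. The fits were also run on simulated counts with known fold changes, drawn without a batch effect, and no result given here rests on those runs. Alternatives were the DESeq2 1.42.0 Wald test, other scalings and filters, no batch term, a replicate block, single batches and each library left out. In heart the deviations of libraries with the same number correlated at 0.16 to 0.23 in all 4 pairs. The numbers served as a block in alternative fits only, and the main fits had batch as the term. The labels state no pairing and such libraries also share a batch. In the kidney tables not every pair exceeded 0.1. All 36 pairs of libraries within a group differed by more than sampling noise. The labels give 4 rats per group, and p-values measure the spread between these rats. The clock genes, the lists and the marker sets were chosen with earlier results of these data known. All 10 clock genes are named whatever their p. From the lists, Bmal1, Npas2, Ciart, Usp2, Fkbp5, Zbtb16, Tsc22d3 and Sgk1 are named, with every listed gene past the threshold (up to 6 per list and direction) and the 5 genes most like Per1. Dusp1, Klf9, Pik3r1, Pdk4, Col1a1, Slc4a1, Nppa, Slc12a1, Ranbp10, Dnajc9 and Cpne7 were named after their values were seen. Promoter windows are from RefSeq GRCr8, and Cry1 has no window there.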

Additional observations from a re-analysis of the deposited data

Results flagged for a closer look

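In 60 groups of 4 rats (10 clock genes in 6 groups), 4 had a sample that stood apart from the other 3, by a gap of more than Dixon's 95% critical value for the group's range; chance gives about 3 of 60. Clock in Aldosterone replicate 3 was 94.5 CPM, with the others at 86.0 to 87.0. Cry1 in Control replicate 2 was 21.4 CPM, with the others at 15.6 to 16.4. Dbp in Kidney_low_salt replicate 1 was 83.7 CPM, with the others at 51.5 to 51.9, and all 4 lay above the high-salt libraries. Per3 in Heart_high_salt replicate 4 was 6.84 CPM, with the others at 3.48 to 3.96. No Per1 value stood apart by this measure.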

How the results depend on the processing

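Per1 kept its direction in all 17 alternatives of each treatment comparison. Genes called over the whole table depended strongly on the tool: DESeq2 called 373, 1695 and 303 genes for aldosterone, kidney and heart (edgeR 0, 454 and 8), among them 1, 3 and 2 clock genes, with Per1 at log2 0.51, 1.14 and 1.53. DESeq2 called 405, 631 and 1026 genes between batches (edgeR 24, 0 and 347; 1 clock gene, in heart) and 657 and 821 in the 2 interactions (edgeR 10 and 161; 1 clock gene, between kidney and heart). Without a filter on low counts, 4 genes passed for aldosterone, 85 for heart (with 1 clock gene, Per1, at 1.52) and 52 in the interaction of aldosterone and low salt. A filter of 1 CPM in 4 libraries called 1 clock gene in kidney, Per1, at 1.15. Without the batch term 165 genes passed in kidney and 1 in heart. With the replicate block, 52 passed in kidney, 0 in heart and 0 and 16 in the interactions; it changed no call of a clock gene, and Per1 stood at 0.52, 1.16 and 1.56. Batch 1 alone gave 1, 0 and 1 genes, and batch 2 alone 240 in kidney, with Per1 the 1 clock gene at 1.10, and 1 in heart. With library totals, 8 clock genes differed between heart and kidney, against 5 with TMM, where 79.9% of all genes were called. With library totals the median of all genes was shifted as given above.

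With each library left out in turn, 0 to 2 genes passed for aldosterone, 2 to 423 for kidney (2 without Kidney_low_salt replicate 3) and 1 to 8 for heart (1 without Heart_high_salt replicate 2). Counts ran from 0 to 44, 0 to 5 and 62 to 301 between batches and from 0 to 67 and 11 to 194 in the interactions. Clock genes called ran from 0 to 1 in kidney and in the interaction of kidney and heart (Cry1, without Kidney_high_salt replicate 4). Between tissues, where 79.9% of all genes were called with all libraries, they ran from 4 to 5.

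The following log2 fold changes changed sign; none of them was called by edgeR with all libraries except Clock between tissues. For aldosterone Per3 turned to -0.033 without the batch term and -0.032 with the replicate block, and Zbtb16 to 0.092 with that block. In batch 1 alone Clock was -0.066, Nr1d1 -0.079 and Nr1d2 0.0077, and in batch 2 alone Per2 -0.073, Per3 -0.22, Tef -0.14, Npas2 0.15, Zbtb16 0.070 and Sgk1 0.079. In kidney, batch 1 alone gave Per2 -0.30, Per3 -0.041, Nr1d2 -0.013 and Npas2 0.0997, and batch 2 alone Bmal1 0.013. In heart, batch 1 alone gave Per3 0.49, Clock 0.065, Dbp 0.035, Fkbp5 0.30 and Zbtb16 0.26, and batch 2 alone Cry1 0.097, Nr1d1 -0.54, Nr1d2 -0.20, Bmal1 0.067 and Npas2 0.027. Heart Fkbp5 was 0.0014 with DESeq2, 0.0012 with its size factors and 0.039 without the batch term. Between tissues Clock was -0.14 with library totals, a scale on which the median of all genes lay lower as well. With group means subtracted, likeness to Per1 was 0.16 for Per2, 0.22 for Cry1, 0.37 for Cry2, -0.28 for Nr1d2 and 0.19 for Tef.

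With single libraries left out, signs changed within these ranges. For aldosterone they were -0.27 to 0.29 for Per3, -0.074 to 0.27 for Tef, -0.050 to 0.15 for Nr1d1, -0.0060 to 0.10 for Clock, -0.16 to 0.0077 for Nr1d2, -0.040 to 0.43 for Per2, -0.17 to 0.0997 for Npas2 and -0.31 to 0.47 for Zbtb16. For kidney they were -0.031 to 0.15 for Per3, -0.042 to 0.047 for Nr1d2, -0.0034 to 0.072 for Clock, -0.048 to 0.33 for Per2, -0.069 to 0.045 for Bmal1 and -0.13 to 0.044 for Npas2. For heart they were -0.14 to 0.088 for Cry1, -0.086 to 0.46 for Nr1d1, -0.072 to 0.028 for Clock, -0.22 to 0.27 for Per3, -0.38 to 0.048 for Dbp, -0.19 to 0.11 for Bmal1, -0.087 to 0.078 for Fkbp5 and -0.28 to 0.19 for Zbtb16. The cause of these moves was not tested. The lowest clock gene value was 3.16 CPM (Per3 in heart), where counting error adds most to the spread.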
